A study of Homo sapiens with 12 samples.

Results

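Human liver spheroid co-cultures that were left untreated or exposed to 1% total parenteral nutrition (TPN) up to 144 h made up 6 of the 12 RNA sequencing libraries of the study, 3 libraries per group, and they were chosen by the exposure time in their labels. The hepatocyte side of the spheroids was C3A, a subclone of HepG2 hepatoma cells. Fewer LX-2 cells, which stand for the stellate cell in its activated state and are immortalized, were mixed in. TPN, the intravenous feeding solution used in the clinic, held amino acids, electrolytes, glucose and a lipid emulsion. Trace elements and vitamins were added to it, and the untreated spheroids received none of it. The other 6 libraries came from the same co-culture after 24 h of exposure, again with 3 untreated and 3 exposed libraries. They entered the same model, so they share in the filter on low values and in the estimate of the spread, and they serve to ask whether the effect of TPN differed between the exposure times. Each library came from pooled spheroids of independent experiments, so that C3A and LX-2 transcripts were measured together, and fewer cells of a type and less RNA per cell cannot be told apart. Both lines are tumor-derived or immortalized, which limits them as a model of hepatocytes and stellate cells. The question was which genes the long exposure changed.

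Expression was given as FPKM, the fragments of a gene scaled by transcript length and by the fragments of the library, so that levels of different genes can be compared. The FPKM of the 6 libraries summed to between 564774 and 583722, between 10936 and 11074 genes reached 1 FPKM, and depth, estimated from the steps of low values in short genes, was near 1.81e+07 fragments per library. The correlation of log2 values between libraries was 0.9934 to 0.9957 within groups and 0.9771 to 0.9811 between them. Of the hepatocyte markers, ALB, APOA1 and SERPINA1 had group means between 2179 and 6044 FPKM at 144 h, whereas CYP7A1, which encodes the rate-limiting enzyme of bile acid synthesis, stayed at or below 0.04 FPKM. Several stellate markers were low. COL1A1, the main fibrillar collagen chain of stellate cells, had a mean of 15.1 FPKM in untreated spheroids of 24 h, 1.92 FPKM in those of 144 h and 0.747 FPKM after TPN, and VIM (vimentin) had means of 15.6, 2.44 and 1.08 FPKM. PDGFRA, DES, LUM and DCN stayed at or below 0.08 FPKM in every library of 144 h, while ACTA2, SPARC and LOX, which other cells can also express, lay at or above 19.8 FPKM. Not all markers were lower in the later untreated spheroids. Untreated means at 24 h and 144 h were 3.10 and 3.08 FPKM for PDGFRB, 57.8 and 47.9 for ACTA2, and 56.6 and 146 for LOX. By RT-qPCR, the paper reported stellate markers, COL1A1 and PDGFRB among them, as stable over the culture period. Of 15 stellate markers, 11 were tested, 2 rose and 5 fell, and their summed level ran from 260 to 274 FPKM in untreated and from 344 to 369 FPKM in exposed libraries. Most of that difference was S100A6, whose mean was 44.5 FPKM untreated and 119 FPKM with TPN. Of 9 endothelial markers listed, 7 were in the table, and none exceeded 0.34 FPKM at 144 h. The leukocyte markers PTPRC, CSF1R, MARCO and CD3E stayed at or below 0.05 FPKM.

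The liver clears reactive lipids, quinones and drugs by reduction, by conjugation to glutathione or glucuronic acid, and by export. Many genes of this defence, together with heme oxygenase and ferritin, are known targets of NRF2, a transcription factor that KEAP1 holds back until electrophiles modify it. The liver also secretes hepcidin, the hormone that blocks iron release through ferroportin and whose gene answers to BMP receptors and SMAD proteins, and it makes most of the plasma proteins, lipoproteins and cholesterol.

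In the comparison of exposed with untreated spheroids at 144 h, many genes of glutathione synthesis and aldehyde reduction rose. So did some genes of heme breakdown and iron storage. Hepcidin, nearly all genes of DNA replication and mitosis, most genes of cholesterol and fatty acid synthesis and most collagens fell. A gene is said to have risen or fallen where its limma p value, adjusted by the Benjamini-Hochberg method over all 11713 genes tested, was below 0.05, and a differentially expressed gene (DEG) had in addition an absolute log2 fold change above 0.58. A difference between the exposure times, given by the interaction term of the model, is said to be called where it met both thresholds. The log2 fold changes refer to FPKM + 0.1. For genes with low FPKM, or with a library at 0, their size therefore depends on the constant that was added. Of all genes tested, 24.2% rose and 28.3% fell, and the median log2 fold change was -0.02, with quartiles of -0.19 and 0.16. DEGs made up 9.48% of the genes tested, with 5.75% that rose and 3.73% that fell. The counts of the gene groups below are to be read against these shares. DEGs that rose gained 20836 FPKM in sum and DEGs that fell lost 8426 FPKM. In 300 of the 1110 DEGs the lower group mean was below 1 FPKM, and 418 had groups that did not overlap and a higher group mean of at least 10 FPKM. Groups that did not overlap were common, in 27.2% of all genes tested with the exposed group higher and in 30.2% with it lower.

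**Figure D1:**
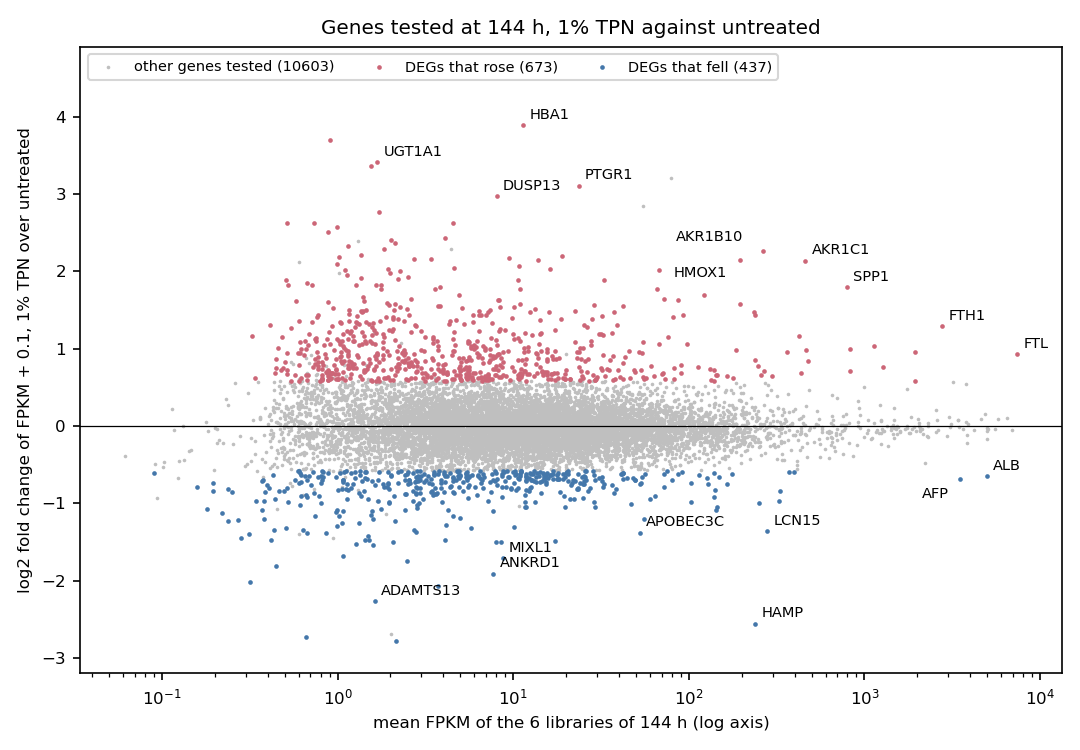
Each point is a gene tested, by its mean FPKM over the 6 libraries of 144 h (horizontal, log axis) and its log2 fold change of FPKM + 0.1, exposed over untreated (vertical), with DEGs in color. FTL and FTH1 lie at the far right above 0, ALB and AFP at the far right below 0, and HAMP stands alone at a log2 fold change of -2.56.

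The transcript of NRF2 itself fell while those of most of its partners rose. NFE2L2, which encodes NRF2, measured 105, 97.2 and 103 FPKM in the untreated libraries and 75.3, 77.2 and 79 FPKM in the exposed libraries (log2 fold change -0.40 ± 0.031 SE, limma adjusted p = 1.93e-07). All exposed values lay below all untreated values. Of the 10 genes for NRF2 and its regulators, 8 rose and 1 fell, with a median log2 fold change of 0.40. OSGIN1, an oxidative stress response gene, measured 28.6, 29.9 and 31.4 FPKM in the untreated libraries and 98, 104 and 105 FPKM in the exposed libraries (log2 fold change 1.77 ± 0.044 SE, limma adjusted p = 2.09e-12). SQSTM1, the autophagy adaptor p62 that binds KEAP1, measured 131, 127 and 128 FPKM untreated and 339.6, 342 and 365 FPKM with TPN (log2 fold change 1.44 ± 0.036 SE, limma adjusted p = 2.18e-12). KEAP1 (0.39) and the small MAF partner MAFG (0.53) rose less.

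Glutathione synthesis rose at its rate-limiting step. GCLM, the modifier subunit of glutamate-cysteine ligase at chr1:93885199-93909456 (GRCh38), measured 5.26, 4.35 and 5.65 FPKM in the untreated libraries and 23.9, 21.5 and 22.6 FPKM in the exposed libraries (log2 fold change 2.14 ± 0.079 SE, limma adjusted p = 1.44e-10). GCLC, the catalytic subunit, measured 42.6, 41.9 and 42 FPKM untreated and 130.4, 131 and 129.9 FPKM with TPN (log2 fold change 1.63 ± 0.030 SE, limma adjusted p = 2.43e-13). Both groups were tight and far apart. The cystine importer SLC7A11 (1.01 ± 0.11) and glutathione reductase GSR (0.75 ± 0.029) rose as well, whereas glutathione synthetase GSS (-0.19) and the phospholipid peroxidase GPX4 (-0.19) fell slightly. Of the 14 genes of glutathione synthesis and recycling, 9 rose and 4 fell, with a median of 0.70. The low-expressed GGT5 (1.15) was among those that rose, and GGT1, the better known gamma-glutamyl transferase, had a log2 fold change of -0.03 ± 0.045 and was not called.

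The thioredoxin arm moved the same way. TXNRD1, thioredoxin reductase, measured 101, 97.5 and 98.7 FPKM in the untreated libraries and 289.6, 302 and 292 FPKM in the exposed libraries (log2 fold change 1.57 ± 0.026 SE, limma adjusted p = 1.35e-13). SRXN1, sulfiredoxin, which restores overoxidized peroxiredoxins, measured 58.1, 55.2 and 59 FPKM untreated and 180.0, 182 and 196 FPKM with TPN (log2 fold change 1.69 ± 0.037 SE, limma adjusted p = 1.11e-12). Neither gene had overlapping groups. Thioredoxin TXN (0.71) and its inhibitor TXNIP (0.95) both rose, and of the 15 genes of this group 10 rose and 3 fell, with a median of 0.18. In the supply of NADPH, which both arms consume, 4 of 9 genes tested rose and 4 fell. The pentose phosphate enzymes TKT (0.55) and TALDO1 (0.73) rose, the folate enzyme MTHFD1 fell (-0.44), and ME1, at or below 0.03 FPKM in the libraries of 144 h, was not tested.

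The promoters of GCLM and TXNRD1 are shown because both genes rose and both promoters hold the core of the antioxidant response element, the sequence that NRF2 binds. They are the 250 bases before the RefSeq start site (GRCh38.p14), written 5′ to 3′ on the strand of the gene, with each match to TGACNNNGC on either strand in capitals, 34 bases before the start site in GCLM and 99 in TXNRD1.
GCLM, chr1:93909431-93909680, minus strand: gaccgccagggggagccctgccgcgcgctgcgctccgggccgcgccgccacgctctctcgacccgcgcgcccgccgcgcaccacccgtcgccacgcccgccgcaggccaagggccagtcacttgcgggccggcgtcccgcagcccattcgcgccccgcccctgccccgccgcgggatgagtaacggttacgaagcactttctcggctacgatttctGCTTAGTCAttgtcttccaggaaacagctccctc
TXNRD1, chr12:104215529-104215778, plus strand: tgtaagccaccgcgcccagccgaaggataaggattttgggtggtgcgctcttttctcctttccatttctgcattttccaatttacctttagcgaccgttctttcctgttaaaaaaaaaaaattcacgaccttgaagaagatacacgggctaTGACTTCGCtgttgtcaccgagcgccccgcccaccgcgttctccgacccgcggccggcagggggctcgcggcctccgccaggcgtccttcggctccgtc
The motif was about as frequent in the group as in all genes. It lay in 6 of the 46 windows (13%) available for the 59 genes tested of the NRF2, glutathione, thioredoxin and carbonyl lists, and in 12.3% of the windows of all genes tested, and enhancers farther away were not searched. In all, 5 motifs were searched on both strands of such windows, and the shares are descriptions.

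Enzymes that reduce quinones, aldehydes and other carbonyls gave 3 of the 10 largest increases among DEGs whose higher group mean was at least 10 FPKM and whose groups did not overlap. PTGR1, prostaglandin reductase 1, which reduces the double bond of reactive alkenals, lies at chr9:111549722-111599893 and measured 4.29, 5.73 and 4.56 FPKM in the untreated libraries and 42.5, 41 and 43.5 FPKM in the exposed libraries (log2 fold change 3.11 ± 0.083 SE, limma adjusted p = 4.93e-12). The others were aldo-keto reductases. AKR1B10, which reduces aliphatic aldehydes and retinal, measured 98.2, 87.4 and 89.6 FPKM untreated and 436, 425 and 457 FPKM with TPN (log2 fold change 2.26 ± 0.054 SE, limma adjusted p = 1.82e-12). AKR1C1, a reductase of steroids and lipid aldehydes, measured 169.9, 168 and 174 FPKM untreated and 725, 738 and 791 FPKM with TPN (log2 fold change 2.14 ± 0.080 SE, limma adjusted p = 1.87e-10). NQO1, the quinone reductase often used as an NRF2 readout, started from a high level and measured 249.5, 239 and 248 FPKM untreated and 471, 464 and 491 FPKM with TPN (log2 fold change 0.95 ± 0.028 SE, limma adjusted p = 1.23e-11). ALDH3A1, an aldehyde dehydrogenase, rose from a mean of 0.20 ± 0.10 (SD) to 2.91 ± 0.19 FPKM, a log2 fold change of 3.36 ± 0.19. Of the 22 genes of this group 20 were tested, 14 rose and 5 fell, with a median of 0.48. AKR1C1 shares long stretches with its paralogs, so its level depends on how the authors' counting divided shared reads.

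Conjugation and export rose in part. UGT1A1, the bilirubin glucuronosyltransferase, measured 0.27, 0.23 and 0.13 FPKM in the untreated libraries and 2.89, 2.87 and 3.69 FPKM in the exposed libraries (log2 fold change 3.41 ± 0.22 SE, limma adjusted p = 3.20e-08), and UGT1A6 rose as well (1.62 ± 0.35). UGT1A genes share their last exons, so reads there cannot be assigned to a single gene. Of 9 glucuronidation genes tested (17 listed), 5 rose and 2 fell. Among glutathione S-transferases, GSTA2 measured 4.47, 4.12 and 3.7 FPKM untreated and 19, 15.1 and 18.7 FPKM with TPN (log2 fold change 2.07 ± 0.12 SE, limma adjusted p = 7.75e-09), and its near-identical neighbour GSTA1 rose by 1.78 ± 0.11. The microsomal MGST1 rose by 0.65, yet only 4 of 14 members tested rose, 2 fell and 8 were not called. Of the cytochrome P450 enzymes of drug metabolism, 8 of 19 listed were tested, 4 rose and 2 fell. CYP2B6, a target of the xenobiotic receptors CAR and PXR, measured 2.27, 2.48 and 2.52 FPKM untreated and 6.17, 6.1 and 6.36 FPKM with TPN (log2 fold change 1.32 ± 0.070 SE, limma adjusted p = 4.29e-09). The AHR target CYP1A1 rose by 0.71 ± 0.087 at 144 h and had a log2 fold change of -0.47 at 24 h (limma adjusted p = 0.00343). Of 13 ABC exporters tested, 9 rose and 3 fell. ABCC3, which exports conjugates across the basolateral membrane, measured 11.8, 11.6 and 11.8 FPKM untreated and 33.1, 33.3 and 32.5 FPKM with TPN (log2 fold change 1.48 ± 0.036 SE, limma adjusted p = 2.09e-12), and the canalicular exporter ABCC2 rose by 0.98 ± 0.036.

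Some genes of heme breakdown, iron storage and iron export rose, together with a fall of hepcidin. HMOX1, heme oxygenase 1, measured 69.9, 71.8 and 76 FPKM in the untreated libraries and 314, 310.4 and 336 FPKM in the exposed libraries (log2 fold change 2.14 ± 0.041 SE, limma adjusted p = 3.78e-13). Every exposed library stood far above every untreated one. BLVRB (0.64), a biliverdin reductase, and FECH (1.11), which inserts iron into protoporphyrin to make heme, rose too. Of the 12 genes of heme breakdown and synthesis, 4 rose, 2 fell and 6 were not called, with a median of -0.02. The rise was thus that of single genes and not of the list. FTL, the ferritin light chain, had the largest gain in absolute level of any DEG, with 5109, 5089.7 and 5145 FPKM in the untreated libraries and 9557, 9675 and 9958 FPKM in the exposed libraries (log2 fold change 0.93 ± 0.028 SE, limma adjusted p = 2.37e-11). FTH1, the heavy chain, measured 1605, 1586 and 1615 FPKM untreated and 3816, 3971 and 3984 FPKM with TPN (log2 fold change 1.29 ± 0.027 SE, limma adjusted p = 6.06e-13). SLC40A1, which encodes ferroportin, measured 19.6, 18.6 and 19.6 FPKM untreated and 44.5, 44.1 and 43.6 FPKM with TPN (log2 fold change 1.19 ± 0.039 SE, limma adjusted p = 5.22e-11). Transferrin TF fell by 0.59 on the log2 scale and its receptor TFRC rose by 0.17 ± 0.035. Of 14 genes of iron storage, transport and sensing tested, 6 rose and 6 fell. Of those that rose, only FTL, FTH1 and SLC40A1 passed the DEG threshold.

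HAMP, the hepcidin gene at chr19:35280716-35285143, fell more than any other DEG whose higher group mean reached 10 FPKM. It measured 416, 389 and 419 FPKM in the untreated libraries and 60.1, 75.2 and 73.5 FPKM in the exposed libraries (log2 fold change -2.56 ± 0.098 SE, limma adjusted p = 2.15e-10). The fall was present at 24 h (-2.15, limma adjusted p = 8.56e-09), and the difference between the exposure times (-0.41, limma adjusted p = 0.0382) was smaller than the size threshold. Of the 9 genes tested of the hepcidin and BMP-SMAD list, 7 fell and 1 rose, with a median of -0.65. ID3 (-1.04 ± 0.042), SMAD7 (-0.84 ± 0.061), ID2 (-0.65 ± 0.036), ID1 (-0.56 ± 0.046) and SMAD6 (-0.31 ± 0.078), which BMP receptors are known to induce, all fell without overlap of the groups. The single riser was the ligand BMP6, with 1.41, 1.26 and 1.34 FPKM untreated and 3.57, 3.92 and 3.87 FPKM with TPN (log2 fold change 1.44 ± 0.14 SE, limma adjusted p = 1.18e-06). The HAMP promoter is shown with the letters of its BMP-responsive element, GGCGCC, in capitals, 105 bases before the RefSeq start site. The window lies inside the span that GENCODE gives the gene and overlaps an exon of an alternative transcript there.
HAMP, chr19:35282278-35282527, plus strand: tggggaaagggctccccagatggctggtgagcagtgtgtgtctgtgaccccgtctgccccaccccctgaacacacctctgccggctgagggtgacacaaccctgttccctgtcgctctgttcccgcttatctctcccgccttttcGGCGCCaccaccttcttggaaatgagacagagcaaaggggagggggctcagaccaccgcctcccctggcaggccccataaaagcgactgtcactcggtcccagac
These 6 letters were in 2 of the 9 windows of the list, HAMP and BAMBI, and in 25.9% of the windows of all genes tested.

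**Figure D2:**
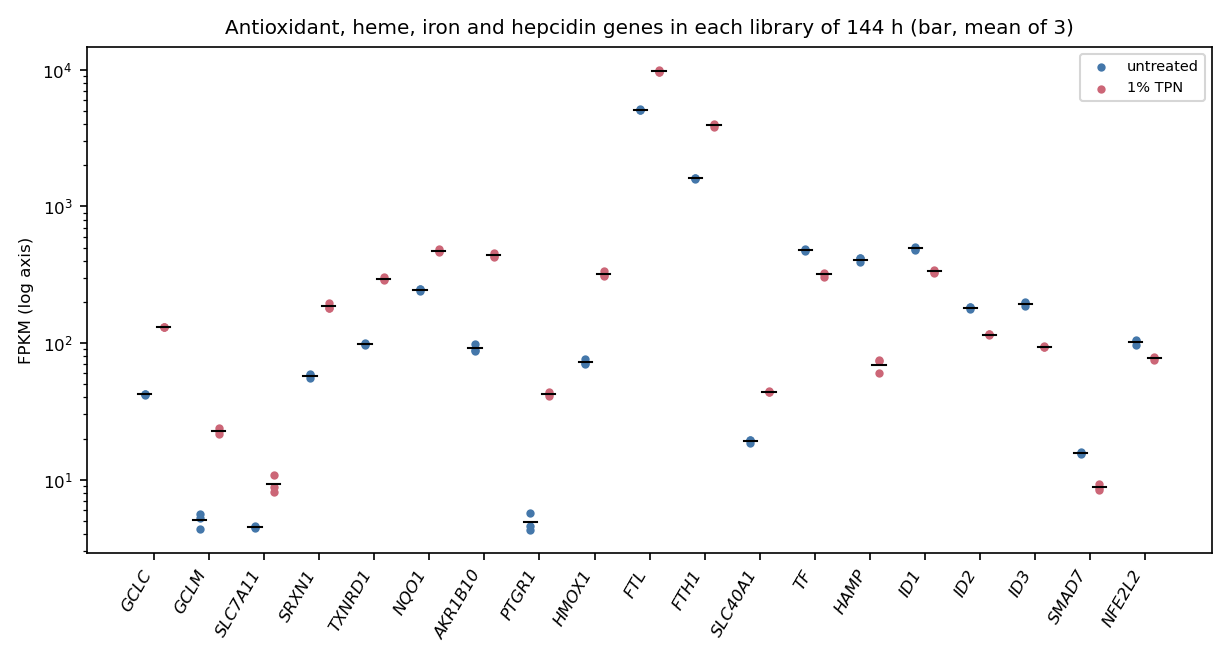
FPKM (log axis) of 19 antioxidant, heme, iron and hepcidin genes in each library of 144 h, blue for untreated and red for 1% TPN, with a bar at the mean of 3. In every gene shown the groups do not overlap, the exposed libraries lie above the untreated ones from GCLC to SLC40A1, and they lie below them for TF, HAMP, ID1, ID2, ID3, SMAD7 and NFE2L2.

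The mixture contained trace elements and vitamins, and genes that handle them moved in part. Metallothioneins, which bind zinc and copper, split within their family. MT2A measured 747, 503 and 638 FPKM untreated and 1021, 957 and 1072 FPKM with TPN (log2 fold change 0.71 ± 0.10 SE, limma adjusted p = 4.86e-05). MT1F measured 86.5, 68.7 and 75.8 FPKM untreated and 38.4, 28.6 and 33.8 FPKM with TPN (log2 fold change -1.20 ± 0.11 SE, limma adjusted p = 7.48e-07). MT1X rose (0.58) and MT1G fell (-0.75), and untreated replicate 1 was the highest untreated library in these 4 genes. The family is made of close paralogs, and how shared reads were divided was not tested. Of the 18 genes on the list of selenoproteins and selenium handling, 3 rose and 9 fell, with a median of -0.11. The selenoprotein TXNRD1, described above, was not on this list and rose by 1.57. Among those that fell were SELENOP, the plasma carrier of selenium (-0.41), and EEFSEC, the elongation factor that inserts selenocysteine (-0.49). Of the retinoid binding and retinol genes, 9 of 20 listed were tested. CRABP2 (2.09 ± 0.48), an intracellular carrier of retinoic acid, rose from low levels, and DHRS3, a retinal reductase, fell (-0.52).

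Genes of cholesterol synthesis fell nearly as a whole, with small fold changes. Of 23 genes tested, 18 fell and 1 rose, with a median of -0.28. LSS, lanosterol synthase, measured 39.4, 40.0 and 37.8 FPKM in the untreated libraries and 25, 23.8 and 25.2 FPKM in the exposed libraries (log2 fold change -0.66 ± 0.041 SE, limma adjusted p = 1.90e-08). TM7SF2 (-0.75), which like it serves the later steps, and SQLE (-0.15) fell as well, and INSIG1 did not exceed 0.05 FPKM at 144 h. In fatty acid synthesis, 11 of 14 genes tested fell and 1 rose, with a median of -0.30. They included FADS2 (-0.57), ACSS2 (-0.53), ACACA (-0.43), SREBF1 (-0.42), the desaturase SCD (-0.30) and FASN (-0.28). SOAT2, which makes cholesteryl esters and was not on the list, fell by 1.04 on the log2 scale and had a log2 fold change of 0.10 at 24 h.

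Lipid storage moved in the opposite direction. Of 19 genes tested of lipid droplets and triglyceride turnover, 13 rose and 6 fell, with a median of 0.28. PLIN2, the coat protein of hepatocyte lipid droplets, measured 946, 926 and 959 FPKM in the untreated libraries and 1602, 1569 and 1615 FPKM in the exposed libraries (log2 fold change 0.76 ± 0.036 SE, limma adjusted p = 1.64e-09). CIDEC, which enlarges droplets, measured 10.9, 10.2 and 9.92 FPKM untreated and 27.6, 26 and 27.5 FPKM with TPN (log2 fold change 1.38 ± 0.069 SE, limma adjusted p = 2.88e-09). Its relative CIDEB, which serves VLDL lipidation, fell from 23.8 ± 0.77 (SD) to 13.1 ± 0.97 FPKM (-0.85 ± 0.050). PLIN4 rose from about 1 FPKM (1.07 ± 0.11), and the triglyceride lipase PNPLA2 fell slightly (-0.14). Of 30 genes of fatty acid uptake and oxidation tested, 14 rose and 7 fell, with a median of 0.04. CPT1A, which admits fatty acids to mitochondria, measured 15.4, 16.4 and 15.4 FPKM untreated and 31, 30.4 and 30.7 FPKM with TPN (log2 fold change 0.96 ± 0.049 SE, limma adjusted p = 3.40e-09). The secreted lipase inhibitor ANGPTL4 (1.10 ± 0.13) and the transcription factor CREB3L3 (1.01 ± 0.067) rose, and PDK4 stayed at or below 0.19 FPKM and was not tested. In bile acid synthesis and transport, 9 of 16 genes listed were tested, none rose and 4 fell, among them the bile acid receptor NR1H4 (-0.81 ± 0.077) and its target NR0B2 (-0.58 ± 0.033).

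**Figure D3:**
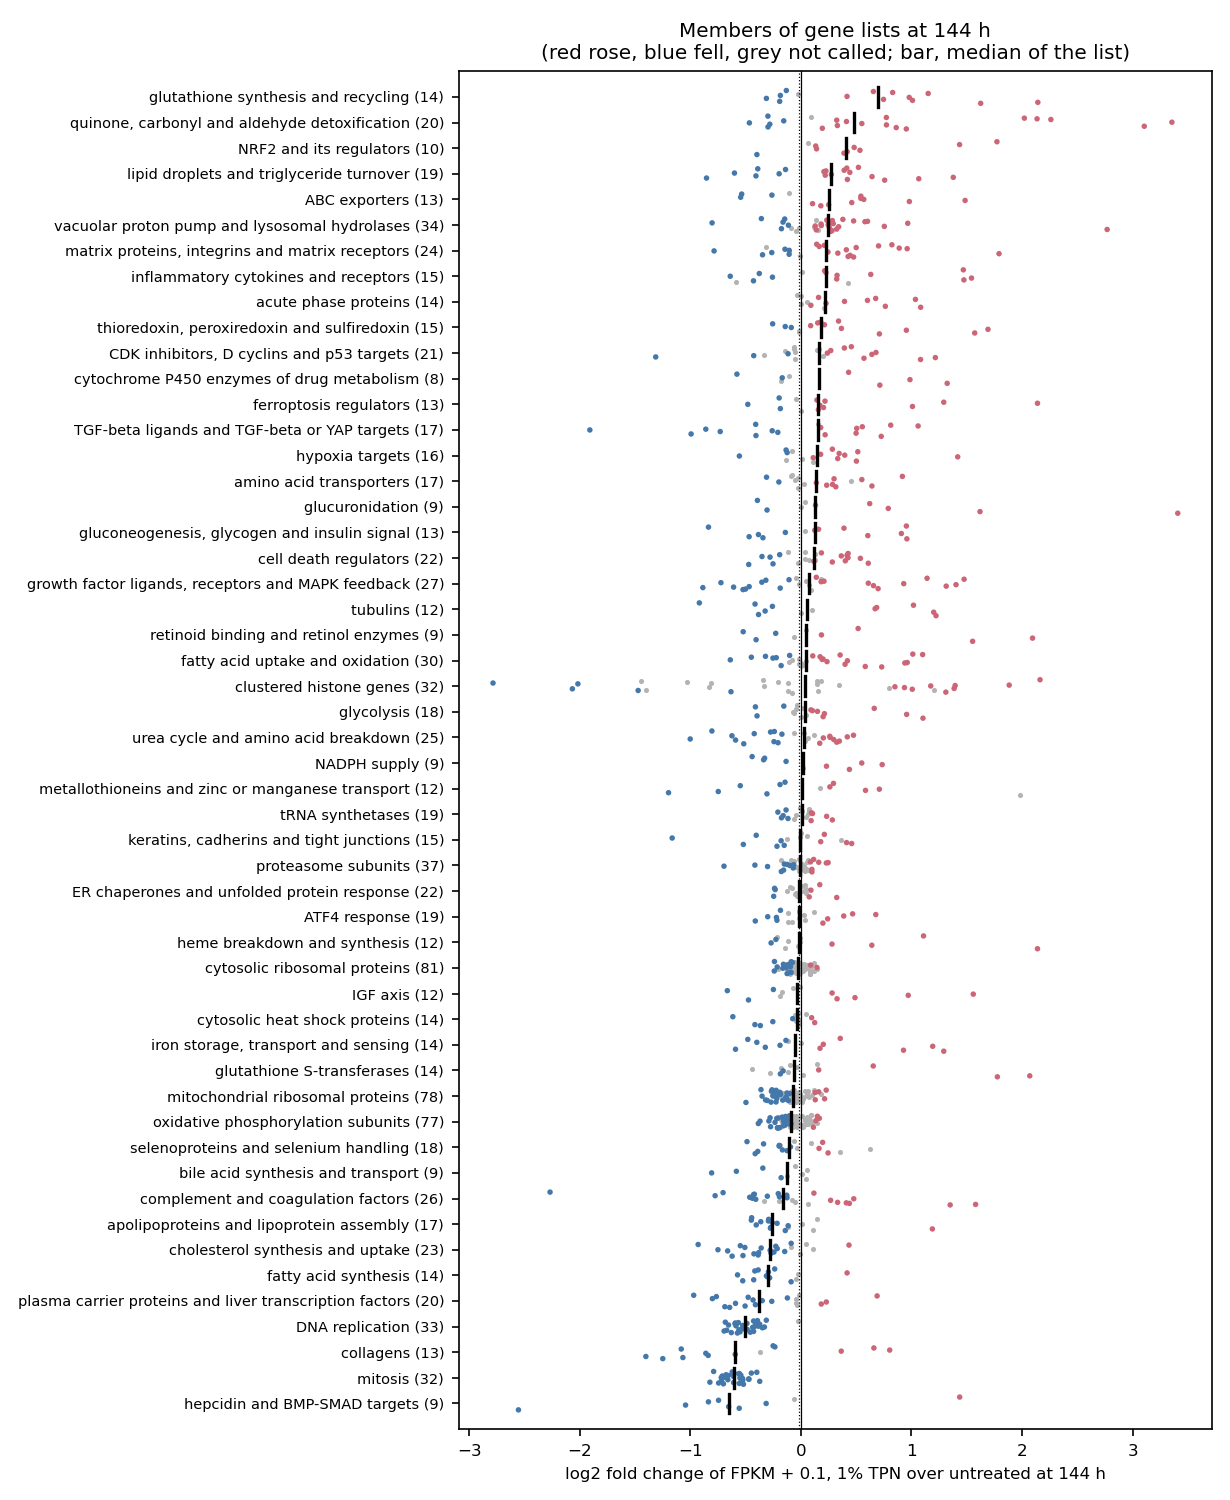
Log2 fold change at 144 h (horizontal) of every tested member of 52 gene lists (vertical, number of members tested in parentheses), red where the member rose, blue where it fell and grey where it was not called, with a black bar at the median of the list and a dotted line at the median of all genes. The medians run from 0.70 for glutathione synthesis and recycling to -0.65 for hepcidin and BMP-SMAD targets, and DNA replication and mitosis are the lists whose points lie almost wholly on the left.

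Transcripts of secreted liver proteins fell by moderate amounts from very high levels. ALB, serum albumin, measured 6391, 5709 and 6031 FPKM in the untreated libraries and 3974, 3674 and 3941 FPKM in the exposed libraries (log2 fold change -0.65 ± 0.044 SE, limma adjusted p = 4.69e-08). AFP, its fetal relative that hepatoma cells keep expressing, measured 4552, 4109 and 4250.4 FPKM untreated and 2862, 2459 and 2699 FPKM with TPN (log2 fold change -0.69 ± 0.051 SE, limma adjusted p = 1.23e-07). These were the largest losses in absolute level among DEGs. Of the 20 plasma carrier proteins and liver transcription factors tested, 13 fell and 3 rose, with a median of -0.38. The carriers TTR (-0.51) and TF (-0.59) and the transcription factors CEBPA (-0.77), FOXA1 (-0.80), ONECUT1 (-0.97) and HNF4A (-0.35) were among those that fell. The hepatocyte markers followed, with 9 of 13 tested falling and none rising, and AHSG, ASGR1, SERPINA1 and FGB were not called. Of 17 apolipoprotein and lipoprotein assembly genes, 12 fell and 1 rose, with a median of -0.26. APOA1 fell by 0.14 on the log2 scale, MTTP by 0.29, and LCAT and CETP by 0.45 each. APOB measured 493, 565 and 402 FPKM untreated and 417, 404 and 377 FPKM with TPN (log2 fold change -0.27 ± 0.092 SE, limma adjusted p = 0.0239), with groups that overlapped, and the call was lost without untreated replicate 1 (-0.26), without untreated replicate 2 (-0.16) and without exposed replicate 3 (-0.23). APOA4 was the riser, with 17.5, 19.2 and 19.1 FPKM untreated and 46.1, 36.9 and 45.2 FPKM with TPN (log2 fold change 1.19 ± 0.073 SE, limma adjusted p = 1.72e-08).

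Most acute phase proteins rose at 144 h. Of 14 tested, 9 rose and none fell, with a median of 0.22, whereas at 24 h none rose and 7 fell, with a median of -0.23, against 5.04% and 5.46% of all genes that rose and fell at 24 h. In 8 of the 14 the effect was higher at 144 h than at 24 h by the interaction term of the model, which called 4.20% of all genes in that direction. SERPINA3, alpha-1-antichymotrypsin, measured 716, 720.3 and 788 FPKM in the untreated libraries and 1468, 1499 and 1591 FPKM in the exposed libraries (log2 fold change 1.04 ± 0.039 SE, limma adjusted p = 2.13e-10), and its log2 fold change at 24 h was -0.26 (limma adjusted p = 6.74e-04). HP, haptoglobin, which binds free hemoglobin, measured 15.6, 13 and 14.5 FPKM untreated and 28.2, 30.8 and 32.6 FPKM with TPN (log2 fold change 1.08 ± 0.069 SE, limma adjusted p = 2.54e-08), against -0.34 at 24 h. HPX, hemopexin, which binds free heme, rose from levels below 1 FPKM (0.76 ± 0.19). Of 26 complement and coagulation factors tested, 8 rose and 13 fell. The classical complement proteases C1S (1.58 ± 0.079) and C1R (1.35 ± 0.14) rose, and ADAMTS13, which cleaves von Willebrand factor and is normally a product of stellate cells, fell from 2.76 ± 0.13 (SD) to 0.50 ± 0.15 FPKM (-2.27 ± 0.14).

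Nitrogen metabolism split. Of 25 genes of the urea cycle and amino acid breakdown tested, 9 rose and 11 fell. HAL, histidine ammonia-lyase, fell (-0.81 ± 0.16). GPT, alanine aminotransferase, fell from low levels, with 2.56, 2.66 and 2.72 FPKM untreated and 1.27, 1.18 and 1.37 FPKM with TPN (limma adjusted p = 2.28e-06). Of 17 amino acid transporters tested, 8 rose and 2 fell, with SLC3A2, the shared heavy chain of several exchangers, at 127, 128 and 132 FPKM untreated and 199.7, 199.5 and 206 FPKM with TPN (log2 fold change 0.64 ± 0.030 SE, limma adjusted p = 1.47e-09). SLC38A4 (0.92) and SLC36A4 (0.55) rose from levels below 2 FPKM.

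Other stress responses moved in both directions, and most hypoxia targets rose. Of the 19 genes of the ATF4 response tested, 5 rose and 5 fell. ATF4 itself rose by 0.20 ± 0.026 and asparagine synthetase ASNS by 0.24 ± 0.041, the proapoptotic factor DDIT3 fell by 0.41 on the log2 scale, and TRIB3 had a log2 fold change of 0.04 ± 0.031 and was not called at 144 h, although it rose at 24 h (0.33). STC2 (0.47) and VLDLR (0.68) rose. Of 22 ER chaperones and unfolded protein response genes, 4 rose, 3 fell and 15 were not called. The ER chaperone HSPA5 measured 832, 794 and 826 FPKM untreated and 994, 1052 and 1023 FPKM with TPN (log2 fold change 0.32 ± 0.030 SE, limma adjusted p = 9.56e-07), and CALR (-0.25) and XBP1 (-0.24) fell. Of 14 cytosolic heat shock proteins, 2 rose and 5 fell, among them DNAJB1 (-0.62) and the near-identical pair HSPA1A (-0.37) and HSPA1B (-0.42), both of which had risen at 24 h. Of 16 hypoxia targets, 9 rose and 3 fell, with a median of 0.14. EGLN3, an oxygen-sensing prolyl hydroxylase, measured 18.4, 15.7 and 17.7 FPKM untreated and 44.2, 42.9 and 52 FPKM with TPN (log2 fold change 1.42 ± 0.13 SE, limma adjusted p = 1.22e-06), CA9 (0.50) and ERO1A (0.51) rose, ANKRD37 fell (-0.56), and VEGFA had a log2 fold change of 0.10 ± 0.058 and was not called.

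In carbohydrate metabolism, 8 of 18 glycolysis genes tested rose, 3 fell and 7 were not called. The isoforms ENO2 (0.66), PFKP (0.96) and HK1 (1.10) were those that rose most. Of 13 genes of gluconeogenesis, glycogen and insulin signaling, 7 rose and 5 fell. PCK1, the gluconeogenic carboxykinase, measured 10.6, 10.5 and 10.5 FPKM untreated and 19.8, 20.2 and 21.8 FPKM with TPN (log2 fold change 0.96 ± 0.10 SE, limma adjusted p = 4.81e-06), and GCKR, the glucokinase regulator, rose by 0.91 ± 0.064. G6PC1, the last enzyme of gluconeogenesis, was near 2 FPKM and had a log2 fold change of -0.47 ± 0.18 (limma adjusted p = 0.0425), a call that was lost when any library of 144 h except exposed replicate 1 was left out (-0.40 to -0.50), or exposed replicate 1 of 24 h (-0.47). In the IGF axis, 5 of 12 tested rose and 3 fell, with IGFBP3, a carrier of IGFs, at 14.2, 14.8 and 14.8 FPKM untreated and 40.7, 45.7 and 43.5 FPKM with TPN (log2 fold change 1.56 ± 0.13 SE, limma adjusted p = 2.64e-07), IGFBP2 at 0.97 ± 0.18 and IGFBP7 at -0.67 ± 0.12.

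Genes of cell division fell almost without exception. Of 33 DNA replication genes, 32 fell and none rose, with a median of -0.50, and of 32 mitosis genes all 32 fell, with a median of -0.61. The fold changes were narrow, from -0.82 to -0.37 over the mitosis genes, and 17 of these and 8 of the replication genes passed the DEG threshold. MCM7, a subunit of the replicative helicase, measured 97.8, 97.4 and 100.4 FPKM in the untreated libraries and 60.9, 61.2 and 60.3 FPKM in the exposed libraries (log2 fold change -0.70 ± 0.028 SE, limma adjusted p = 3.34e-10). PCNA, the sliding clamp, measured 233, 228 and 236 FPKM untreated and 184, 179 and 190.5 FPKM with TPN (log2 fold change -0.33 ± 0.027 SE, limma adjusted p = 2.71e-07). CDC25C, the phosphatase that activates CDK1, measured 13.3, 13.3 and 13.1 FPKM untreated and 7.07, 7.94 and 7.34 FPKM with TPN (log2 fold change -0.82 ± 0.053 SE, limma adjusted p = 2.98e-08). CCNB2 (-0.74 ± 0.045), TOP2A (-0.68 ± 0.036), CCNB1 (-0.56 ± 0.030), MKI67 (-0.56 ± 0.056) and CDK1 (-0.52 ± 0.041) fell alike, and so did MCM2 (-0.58), CDC6 (-0.67) and LIG1 (-0.68). At 24 h, 18 of the replication genes and 15 of the mitosis genes had fallen, against 5.46% of all genes, with medians of -0.15 and -0.14. The effect was called lower at 144 h than at 24 h in 3 mitosis genes, among them CDC25C (-0.61) and ESPL1 (-0.60), against 1.66% of all genes. In no replication gene did the difference pass the size threshold, but it was near it with an adjusted p below 0.05 in MCM7 (-0.56, limma adjusted p = 5.76e-07) and LIG1 (-0.53, limma adjusted p = 1.37e-04), as in the mitosis gene CCNB2 (-0.57, limma adjusted p = 2.65e-05). The summed level ran from 1193 to 1210 FPKM in untreated and from 835 to 864 FPKM in exposed libraries for DNA replication, and from 1088 to 1125 FPKM and from 723 to 743 FPKM for mitosis.

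**Figure D4:**
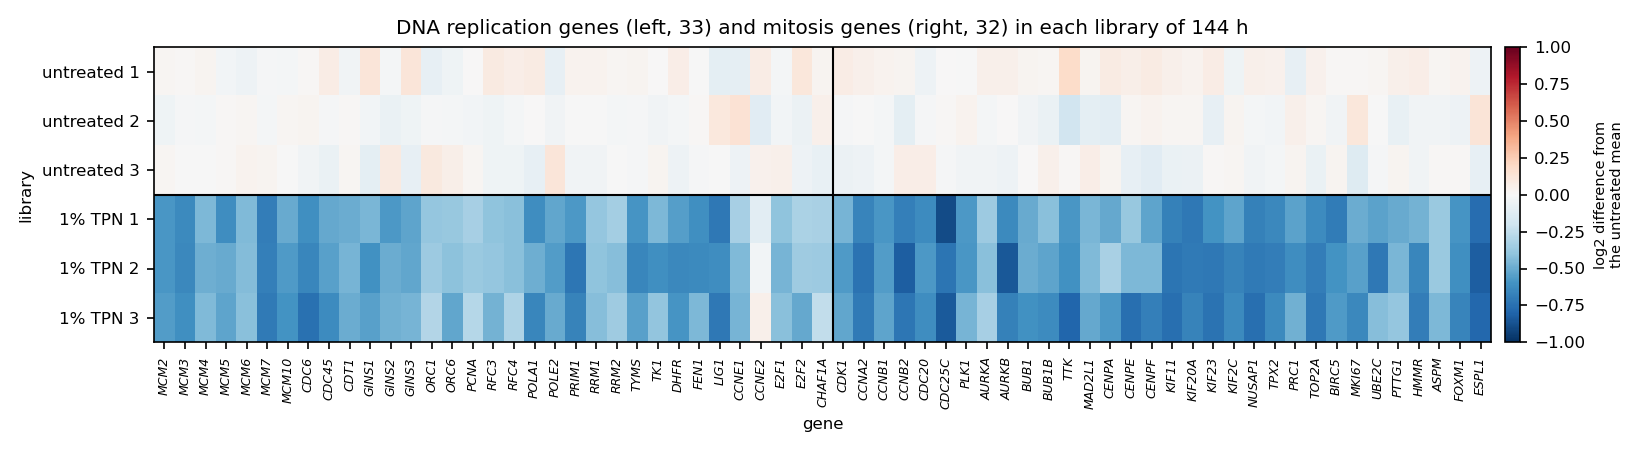
Color gives the log2 difference of FPKM + 0.1 from the untreated mean of 144 h, for each library (rows) and each gene of DNA replication (left, 33) and mitosis (right, 32). The 3 exposed libraries are blue throughout, except for CCNE2, which is near 0 in them.

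Promoters of CDK1 and CCNB2 are shown because mitotic genes are known for CCAAT boxes, which NF-Y binds, and for the cell cycle homology region, here searched as TTTGAA. Matches on either strand are in capitals, in the 250 bases before the RefSeq start site (GRCh38.p14).
CDK1, chr10:60778081-60778330, plus strand: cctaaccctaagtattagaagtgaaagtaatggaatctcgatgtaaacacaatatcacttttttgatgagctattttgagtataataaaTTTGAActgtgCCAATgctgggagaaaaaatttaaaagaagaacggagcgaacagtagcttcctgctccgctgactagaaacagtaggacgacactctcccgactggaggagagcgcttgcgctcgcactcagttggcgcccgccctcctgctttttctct
CCNB2, chr15:59104896-59105145, plus strand: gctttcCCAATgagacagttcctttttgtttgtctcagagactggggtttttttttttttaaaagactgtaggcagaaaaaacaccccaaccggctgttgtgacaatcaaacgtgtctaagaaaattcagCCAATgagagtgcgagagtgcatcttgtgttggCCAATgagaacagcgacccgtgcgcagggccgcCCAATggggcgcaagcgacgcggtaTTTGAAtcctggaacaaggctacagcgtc
CDK1 holds TTTGAA 161 and CCAAT 150 bases before the start site, and CCNB2 holds CCAAT at 244, 120, 87 and 54 and TTTGAA at 29 bases. Of the 26 windows available for mitosis genes, 22 (84.6%) held CCAAT and 14 (53.8%) held TTTGAA, against 35.4% and 8.31% of the windows of all genes tested. Of the 29 windows of DNA replication genes, 17 (58.6%) held CCAAT and 1 (3.45%) held TTTGAA. The last motif was thus frequent in the mitosis windows and not in the replication windows, and CCAAT was nearly as frequent in the cholesterol list (14 of 17 windows, 82.4%). A match is not a binding site.

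Of 21 CDK inhibitors, D cyclins and p53 targets tested, 9 rose and 3 fell, with a median of 0.17, or 0.10 without exposed replicate 3. CDKN1A, which encodes the CDK inhibitor p21, measured 33.2, 36.3 and 35.8 FPKM in the untreated libraries and 72.2, 73.3 and 77.8 FPKM in the exposed libraries (log2 fold change 1.08 ± 0.041 SE, limma adjusted p = 1.91e-10), and its log2 fold change at 24 h was 0.02. CDKN2B rose from below 1 FPKM (1.22 ± 0.18), MDM2 rose by 0.24 ± 0.034, and CDKN2C (-1.31 ± 0.088) and CCND1 (-0.43 ± 0.028) fell. Of 32 histone genes tested, 9 rose and 5 fell, with the extremes at H3C3 (-2.79 ± 0.29), H2AC20 (-2.07 ± 0.31), H2BC5 (1.88 ± 0.26) and H4C8 (2.16 ± 0.63). Histone genes are near-identical and their replication-dependent transcripts lack poly(A) tails, so these values are uncertain. Of 22 cell death regulators, 10 rose and 5 fell, all by less than 0.61 in absolute log2 fold change. MCL1, which protects from apoptosis, measured 57.1, 58.6 and 57 FPKM untreated and 88.4, 89.9 and 85.2 FPKM with TPN (log2 fold change 0.61 ± 0.028 SE, limma adjusted p = 1.33e-09), PMAIP1 rose by 0.54 ± 0.090, BAX had a log2 fold change of -0.03 ± 0.075 and was not called, and BCL2 fell (-0.47 ± 0.14) with overlapping groups, a call lost without exposed replicate 1 (-0.34). Of 13 regulators of ferroptosis, the iron-dependent death by lipid peroxides, 8 rose and 3 fell, but SLC7A11, HMOX1, FTH1 and GPX4 are among them and were counted above.

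Collagens and other matrix genes differed. Of 13 collagen genes tested, 9 fell and 3 rose, with a median of -0.59, or -0.24 over the members with a mean of at least 5 FPKM, and the fibrillar chains COL1A1, COL1A2 and COL3A1 did not exceed 2.38 FPKM. COL1A1 measured 2.38, 1.68 and 1.69 FPKM untreated and 0.92, 0.62 and 0.70 FPKM with TPN (log2 fold change -1.25 ± 0.14 SE, limma adjusted p = 4.22e-06). COL3A1 (-1.40 ± 0.18), COL6A3 (-1.08 ± 0.16) and COL1A2 (-1.07 ± 0.28, or -0.66 without exposed replicate 3, the library at 0) fell from below 1 FPKM. Of the other stellate markers in the same libraries PDGFRB (-0.40) and VIM (-1.07) fell, S100A6 (1.41) and LOX (0.18) rose, SPARC (0.06), TAGLN (-0.05) and THY1 (-0.38) were not called, ACTA2 had a log2 fold change of -0.08 ± 0.040 and was called only without untreated replicate 1 (-0.12), and their part in the fall of the collagens was not tested. Of 24 other matrix proteins, integrins and matrix receptors tested, 15 rose and 6 fell, with a median of 0.23. SPP1, osteopontin, a secreted matrix protein that liver makes in injury, lies at chr4:87975667-87983532 and measured 352, 353 and 359 FPKM in the untreated libraries and 1207, 1185 and 1296 FPKM in the exposed libraries (log2 fold change 1.79 ± 0.037 SE, limma adjusted p = 6.06e-13). The collagen-binding integrins ITGA1 (0.96 ± 0.048) and ITGA2 (0.89 ± 0.046) rose. TGFB1 measured 38.6, 40.4 and 41.2 FPKM untreated and 66.1, 63 and 69.9 FPKM with TPN (log2 fold change 0.73 ± 0.045 SE, limma adjusted p = 1.80e-08), yet of the 17 TGF-beta ligands and TGF-beta or YAP targets tested 8 rose and 8 fell. The protease inhibitor TIMP1 (1.06) rose, and TGFBI (-0.99), CCN2 (-0.26) and the YAP target ANKRD1 fell. ANKRD1 measured 11.8, 12.6 and 12.1 FPKM untreated and 3.44, 3.63 and 2.53 FPKM with TPN (log2 fold change -1.91 ± 0.12 SE, limma adjusted p = 2.81e-08).

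Of 15 inflammatory cytokines and receptors tested, out of 25 listed, 8 rose and 4 fell. LIF, a cytokine of the IL-6 family, measured 4.98, 5.31 and 5.01 FPKM untreated and 14.3, 15.1 and 15.8 FPKM with TPN (log2 fold change 1.54 ± 0.060 SE, limma adjusted p = 2.82e-10). Its relative IL11 measured 3.66, 3.48 and 4.17 FPKM untreated and 10.1, 11 and 10.8 FPKM with TPN (log2 fold change 1.47 ± 0.22 SE, limma adjusted p = 8.19e-05). TNFRSF21, a death receptor, rose by 1.47 ± 0.036, CXCL8 stayed at or below 0.51 FPKM with a log2 fold change of 0.42 ± 0.29 that was not called, and IL6 was 0 in 5 of the 6 libraries. Of 27 growth factor ligands, receptors and MAPK feedback genes tested, 11 rose and 10 fell, with EGR1, an immediate early transcription factor, at 8.77, 8.53 and 7.96 FPKM untreated and 24.3, 23.3 and 23.2 FPKM with TPN (log2 fold change 1.48 ± 0.13 SE, limma adjusted p = 5.46e-07), and the ligands PDGFA (1.40 ± 0.12) and AREG (1.31 ± 0.20) rising from low levels. S100A6, a calcium-binding protein listed as a stellate marker, rose by 1.41 ± 0.10. Tubulins split, with 5 of 12 rising, among them TUBA1A (1.22), TUBA4A and TUBB6 (1.02), and 5 falling. Of 15 keratins, cadherins and tight junction genes tested, 4 rose and 6 fell, with KRT19 at -0.52 ± 0.037 and KRT23 at 0.46 ± 0.053. CLDN14 was at -1.17 ± 0.35 from about 1 FPKM, a call that was lost without exposed replicate 2 (-0.76).

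Subunits of large protein complexes changed little. Of 81 cytosolic ribosomal protein genes tested, 2 rose and 14 fell, and the log2 fold changes lay between -0.24 and 0.15. Of 78 mitochondrial ribosomal protein genes 5 rose and 27 fell, and of 77 subunits of oxidative phosphorylation 4 rose and 30 fell, with medians of -0.07 and -0.09 and no DEG in either list. CYC1, cytochrome c1, measured 176, 203 and 192 FPKM untreated and 149.5, 143 and 143 FPKM with TPN (log2 fold change -0.39 ± 0.041 SE, limma adjusted p = 4.04e-06). Of 37 proteasome subunits 7 rose and 10 fell, with PSMC3 at -0.42 ± 0.036, and PSMB9, an immunoproteasome subunit near 1 FPKM, at -0.70 ± 0.26, a call lost without untreated replicate 1 (-0.50), exposed replicate 2 (-0.58) or exposed replicate 3 (-0.51). Of 19 tRNA synthetases, 5 rose and 5 fell, with log2 fold changes between -0.21 and 0.28.

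Lysosomal genes mostly rose. Of 34 genes tested on the list of the vacuolar proton pump and lysosomal hydrolases, 22 rose and 6 fell, with a median of 0.24. The list also held other lysosomal genes, such as LAMP1, MCOLN1, NPC1 and NPC2, and the transcription factor TFEB. CTSL, the protease cathepsin L, measured 30.9, 29.4 and 32.8 FPKM in the untreated libraries and 60.9, 61.7 and 59.5 FPKM in the exposed libraries (log2 fold change 0.97 ± 0.052 SE, limma adjusted p = 5.68e-09). ATP6V0D2, a pump subunit, measured 0.39, 0.38 and 0.33 FPKM untreated and 3.36, 3.19 and 2.72 FPKM with TPN (log2 fold change 2.77 ± 0.22 SE, limma adjusted p = 1.84e-07), and cathepsin Z, CTSZ, fell from below 1 FPKM (-0.80 ± 0.22). Of the 22 promoter windows available for these genes, 9 (40.9%) held CACGTG, the core of the motif that TFEB binds in lysosomal genes, against 9.05% of the windows of all genes tested. The same number, 9 windows, held TGACNNNGC, 6 windows held both, and in 2 of them the matches overlapped.

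Several genes outside the lists were among those that changed most. DUSP13, a dual-specificity phosphatase, measured 1.38, 1.68 and 2.27 FPKM in the untreated libraries and 14.3, 14 and 14.6 FPKM in the exposed libraries (log2 fold change 2.97 ± 0.13 SE, limma adjusted p = 6.59e-10). CDA, the cytidine deaminase of pyrimidine salvage, measured 5.71, 7.61 and 6.8 FPKM untreated and 29.9, 27.3 and 36.5 FPKM with TPN, a fold change of 4.60 in FPKM + 0.1 (limma adjusted p = 3.31e-09). DKK4, a secreted WNT antagonist, measured 2.92, 4.29 and 3.09 FPKM untreated and 16.8, 15.1 and 14.9 FPKM with TPN (log2 fold change 2.17 ± 0.11 SE, limma adjusted p = 3.31e-09). All 3 had groups that did not overlap. HBA1, an alpha globin gene, had the largest log2 fold change of this set, 3.89 ± 1.03, but its untreated values were 3.77, 6.0 and 0 FPKM against 18.3, 20.2 and 20.4 FPKM with TPN, and without untreated replicate 3, the library at 0, the log2 fold change was 2.02. HBA1 encodes the same protein as HBA2, and how shared reads were divided was not tested. TMSB10, an actin-binding peptide, gained 1247 FPKM (0.96 ± 0.038), and the protease inhibitor SERPINE2 rose by 1.43 ± 0.14.

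Among the genes that fell, MIXL1, a homeobox factor of the early embryo, measured 13.9, 13.6 and 12.7 FPKM untreated and 4.83, 3.7 and 3.65 FPKM with TPN (log2 fold change -1.71 ± 0.086 SE, limma adjusted p = 2.90e-09). COMP, a matrix protein named for cartilage, measured 12.4, 11.4 and 11.6 FPKM untreated and 3.88, 3.83 and 4.62 FPKM with TPN (log2 fold change -1.51 ± 0.084 SE, limma adjusted p = 7.60e-09). EPO, erythropoietin, measured 13, 12 and 13 FPKM untreated and 5.15, 3.85 and 4.29 FPKM with TPN (log2 fold change -1.50 ± 0.091 SE, limma adjusted p = 1.66e-08). EPO is a textbook target of hypoxia, and it fell while 9 of 16 genes of the hypoxia list rose. LCN15, a lipocalin, measured 410.4, 401 and 399 FPKM untreated and 162, 153 and 158 FPKM with TPN (log2 fold change -1.36 ± 0.043 SE, limma adjusted p = 3.24e-11). APOBEC3C, a cytidine deaminase that restricts retroviruses, measured 78, 75.6 and 74.1 FPKM untreated and 27.7, 30.1 and 29.5 FPKM with TPN (log2 fold change -1.38 ± 0.042 SE, limma adjusted p = 2.37e-11). PGC, a pepsinogen (-1.49 ± 0.11), SPTLC3, a subunit of serine palmitoyltransferase (-1.31 ± 0.053), and DHRS2, a short-chain dehydrogenase (-0.97 ± 0.041), fell as well, again with groups that did not overlap.

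The effect of TPN at 144 h was also set beside that at 24 h, where each exposure had its own untreated libraries. The interaction term called 5.87% of all genes tested. Of the 1110 DEGs of 144 h, 349 had an adjusted p below 0.05 in the same direction at 24 h, where no fold threshold was applied. Over all genes tested, 5.04% rose and 5.46% fell at 24 h by adjusted p. Hepcidin, GCLM, OSGIN1 and SLC7A11 had log2 fold changes of -2.15, 1.69, 1.59 and 1.14 at 24 h and -2.56, 2.14, 1.77 and 1.01 at 144 h, and none of these 4 differences reached the size threshold. The adjusted p of the interaction was 0.0382, 0.00747, 0.0423 and 0.588 in the same order, so that only SLC7A11 lacked an adjusted p below 0.05. UGT1A1 (0.43), ALDH3A1 (0.55), GSTA2 (0.25) and ATP6V0D2 (-0.13) were not called at 24 h, and their effects were higher at 144 h by the interaction term, by 2.98, 2.80, 1.82 and 2.90. For HMOX1, TXNRD1, AKR1B10 and PTGR1, which had risen at 24 h, the further increase of the log2 fold change was 0.60, 0.66, 0.83 and 1.87, and all 4 differences were called.

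**Figure D5:**
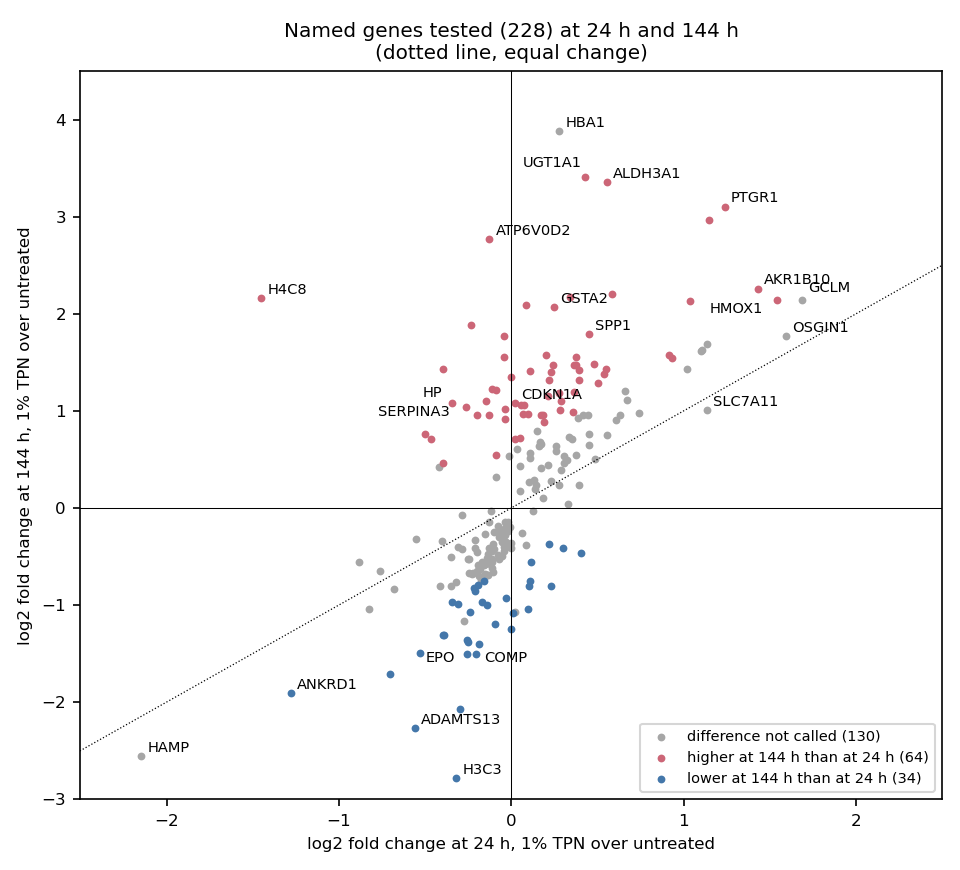
Log2 fold change of FPKM + 0.1 at 24 h (horizontal) and 144 h (vertical), exposed over untreated, for 228 genes selected by the rules given under the processing of the data, red or blue where the effect was higher or lower at 144 h by the interaction term (64 and 34 genes) and grey where that difference was not called (130 genes). Most points lie farther from 0 on the vertical than on the horizontal axis. Most of these genes were selected by their change at 144 h or by the interaction. Larger vertical values and called differences therefore follow in part from the selection. SERPINA3 and HP lie left of 0 and above 0, and HAMP and GCLM lie near the dotted line of equal change.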

How the data were processed

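RNA was sequenced from pooled spheroids with a strand-specific library on the DNBSEQ platform. According to the methods the authors filtered reads with SOAPnuke and calculated expression with RSEM. The submitters' processing notes name HISAT2 2.0.4, Bowtie2 2.2.5 and GRCh38.p13. The deposited FPKM values, given to 2 decimals by the authors for 16705 genes in 12 libraries, were used without further scaling. The table held no read counts, and its gene annotation columns were used only for symbols. Coordinates are those of GENCODE 44 (GRCh38), and promoter windows are those of RefSeq (GRCh38.p14).

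FPKM do not suit a count model, so limma 3.58.1 (R 4.3.3) was run on log2(FPKM + 0.1) of the 11713 genes whose mean over the 12 libraries reached 0.5 FPKM. The linear model held the 4 groups, and eBayes was used with an intensity trend. Benjamini-Hochberg adjustment covered every gene tested. At 144 h exposed was compared with untreated spheroids, and an interaction contrast subtracted the 24 h effect from the 144 h effect. Tables and figures were made with Python 3.11.15, pandas 2.3.3 and matplotlib 3.10.9. In simulated libraries of 144 h with 200 altered genes out of 11713, the model found 199 of them and made 3 false calls. These calls had to meet both DEG thresholds, so calls by adjusted p alone, as in the counts of the lists, were not checked. The noise was drawn independently for each gene from a normal distribution on the log2 scale. Far more genes, 52.5% of those tested, were called by adjusted p in the data than were altered in the simulation. The altered genes had log2 fold changes of 1 or 2 in size, so smaller changes were not tested. Of the 1110 DEGs, 326 had an absolute log2 fold change above 1.

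Genes are named by a rule: the 10 DEGs on each side with the largest fold change among those with a higher group mean of at least 10 FPKM and no overlap, the 5 on each side with the largest gain, loss or interaction, up to 3 members with the largest change in each of 57 lists, and members that define a list by their role. Genes of the marker lists were named in addition. The lists and genes were chosen with earlier results of these data known. Lists are described by counts and medians without a test.

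Depth was estimated at 1.81e+07 fragments per library (1.72e+07 to 1.87e+07) from the steps of low FPKM in 13 short genes. Alternatives changed the pseudocount (1 or 0.01), the filter, the scaling, the trend, the fold threshold, the replicate block and the libraries in the model. Some genes that the rule selects are not reported here. Viability, imaging and biochemical assays were not analysed here.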

Additional observations from a re-analysis of the deposited data

Results flagged for a closer look

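The effect of TPN at 144 h minus that at 24 h, on the log2 scale, was estimated by the interaction term of the limma model across all genes, and a difference is listed here where its adjusted p was below 0.05 and its size above 0.58. Groups of 3 libraries are too small for a test of single outlying libraries. The interaction was called as higher at 144 h in 492 and as lower in 195 of the 11713 genes tested. The causes of these differences were not tested.

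SERPINA3 (1.30), HP (1.43), CYP1A1 (1.18) and KRT23 (0.86) fell at 24 h and rose at 144 h, each by an adjusted p below 0.05. The heat shock pair HSPA1A (-0.58) and HSPA1B (-0.72) rose at 24 h and fell at 144 h. HPX (1.26) and H4C8 (3.61) had estimates of opposite sign at the exposure times, without a call at 24 h.

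In defence and conjugation the difference was 1.87 for PTGR1, 1.10 for AKR1C1, 0.83 for AKR1B10, 2.80 for ALDH3A1, 0.66 for TXNRD1 and 0.94 for GGT5. It was 2.98 for UGT1A1, 1.82 for GSTA1, 1.82 for GSTA2, 1.10 for CYP2B6, 0.63 for CYP2S1 and 1.00 for ABCC3. In heme, iron and metal handling it was 0.60 for HMOX1, 0.79 for FTH1, 0.83 for SLC40A1, 0.89 for BMP6 and 0.69 for MT2A, against -1.11 for MT1F and -0.86 for MT1G. The retinoic acid carrier CRABP2 had 2.01.

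Among lipid genes the difference was 0.81 for ANGPTL4, 0.84 for CIDEC, 0.99 for PLIN4, 0.73 for CREB3L3 and 0.91 for APOA4, and it was -0.64 for CIDEB, -0.59 for TM7SF2 and -1.14 for SOAT2. In nutrient metabolism it was 1.15 for PCK1, 1.25 for HK1, 0.77 for PFKP, 0.95 for SLC38A4, 0.64 for SLC36A4, 1.19 for IGFBP3 and 0.87 for IGFBP2, against -0.87 for G6PC1, -0.86 for GPT and -1.04 for HAL. Of the liver factors, C1S had 1.38 and C1R 1.35, while ADAMTS13 had -1.71 and ONECUT1 -0.80. The hypoxia targets EGLN3 and ANKRD37 differed by 1.03 and -0.67, and EPO by -1.24.

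In the cell cycle the difference was 1.06 for CDKN1A, 1.31 for CDKN2B, -0.92 for CDKN2C, -0.61 for CDC25C and -0.60 for ESPL1, and the histone genes H2BC5, H2AC20 and H3C3 had 2.12, -1.77 and -2.46. Among matrix and cytoskeletal genes it was 1.34 for SPP1, 1.09 for ITGA1, 0.70 for ITGA2, 1.00 for TIMP1, 0.68 for TGFB1, 1.30 for S100A6, 1.33 for TUBA1A and 1.06 for TUBB6. It was -1.25 for COL1A1, -1.22 for COL3A1, -1.09 for COL6A3, -0.83 for VIM, -0.68 for TGFBI and -0.63 for ANKRD1. The signal genes had 1.10 for IL11, 0.61 for LIF, 1.11 for TNFRSF21, 1.23 for EGR1, 1.17 for PDGFA and 0.92 for AREG. In the lysosome ATP6V0D2 had 2.90, CTSL 0.90 and CTSZ -0.91.

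Outside the lists the effect was higher at 144 h for DUSP13 (1.82), DKK4 (1.83), SERPINE2 (1.83), CDA (1.61) and TMSB10 (0.79). It was lower for COMP (-1.30), APOBEC3C (-1.13), LCN15 (-1.10), MIXL1 (-1.01), PGC (-0.96), SPTLC3 (-0.92) and DHRS2 (-0.62). For HBA1 the difference was 3.61 and was not called (limma adjusted p = 0.0779).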

How the results depend on the processing

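The counts of DEGs that rose (673), DEGs that fell (437), genes that rose (2829), genes that fell (3315) and genes with an interaction (687) were recomputed with other pseudocounts, filters, scalings, thresholds and libraries. With a pseudocount of 1, DEGs that fell numbered 242 and interactions 435. Over genes with a mean of at least 5 FPKM, fewer of which are tested, there were 288 DEGs that rose, 235 that fell and 282 interactions. A fold threshold of 1 on the log2 scale left 253, 73 and 213. The other alternatives kept these counts within 1.5 times. Leaving out single libraries gave 643 to 695 DEGs that rose, 425 to 464 that fell, 2569 to 2814 and 2987 to 3276 genes by adjusted p, and 647 to 696 interactions. The share of risers among genes called stayed between 42.5% and 48.8%, and the median of all genes between -0.03 and 0, over all settings.

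A replicate block gave 671 and 437 DEGs, 2824 and 3306 genes by adjusted p and 679 interactions, and changed the call of none of the 228 genes tested that the naming rule selected. Deviations of untreated and exposed libraries with the same number correlated at 0.0163, -0.013 and 0.0559, and not every library correlated best with its own number. These correlations cannot show whether libraries with the same number came from the same experiment.

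No direction of the 228 genes reversed where it was called. Besides the genes named above with a lost call, APOB and PSMB9 lost theirs without the intensity trend, G6PC1, H4C8 and UGT2B4 with a pseudocount of 0.01, PSMB9 with a pseudocount of 1, and G6PC1 and PSMB9 without a filter. The median of the collagens was -0.23 in place of -0.59 with a pseudocount of 1, and over members with a mean of at least 5 FPKM that of the stellate markers was -0.01 in place of -0.38 and that of the selenoproteins -0.18 in place of -0.11. Log2 fold changes of genes with low FPKM depended on the pseudocount. With a pseudocount of 1, UGT1A1 had 1.77 in place of 3.41, ALDH3A1 1.70 in place of 3.36, and ATP6V0D2 1.58 in place of 2.77. CRABP2 had 0.96 in place of 2.09, ADAMTS13 -1.33 in place of -2.27, and COL3A1 -0.41 in place of -1.40. All of these kept their call. The depth limits low values, since 0.5 FPKM on a transcript of 2000 bases is about 15.8 fragments, and 300 of the 1110 DEGs had a group mean below 1 FPKM.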

Other observations

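Few members of the lists of other cell types that a liver culture could hold were tested, so few could be called. Of 11 leukocyte and macrophage markers, 4 were tested and 2 rose. LYZ, lysozyme, measured 1165, 1081 and 1094 FPKM untreated and 1382, 1287 and 1350.0 FPKM with TPN (0.27 ± 0.038), and CD68, a lysosomal membrane protein, measured 47.3, 48.1 and 48.1 FPKM untreated and 64.8, 62.1 and 64.3 FPKM with TPN (0.41 ± 0.032), while PTPRC, which all leukocytes carry, stayed at or below 0.02 FPKM. Of 8 cholangiocyte markers, 5 were tested, SPP1 rose, KRT19 fell, and KRT7 did not exceed 0.04 FPKM. The levels of SOX9 and EPCAM gave log2 fold changes of -0.04 and 0.00 and were not called.

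Low-expressed or abundant members that were selected and not described above moved as follows. The sinusoidal bile acid transporter subunit SLC51B was at -0.34 ± 0.093, the exporter ABCC4 at 0.57 ± 0.13, the cytochrome P450 gene CYP2S1 at 0.99 ± 0.060, ALAS1, the first enzyme of heme synthesis, at 0.28 ± 0.035, and SELENOK at -0.39 ± 0.048. UGT2B4 was at 0.79 ± 0.27 from below 1 FPKM, a call that was lost without untreated replicate 2 (0.71), untreated replicate 3 (0.81), exposed replicate 1 (0.75) or exposed replicate 3 (0.76). The ribosomal protein genes RPLP0 (-0.22 ± 0.030), RPSA (-0.24 ± 0.031) and RPL27A (-0.24 ± 0.035) fell slightly, and so did MRPL1 (-0.50 ± 0.075) of the mitochondrial ribosome and NDUFB1 (-0.37 ± 0.043) of complex I.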
